A study of Mus musculus with 6 samples.

Results

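The nuclear-encoded subunit genes of the mitochondrial respiratory chain and ATP synthase were described in RNA-seq of entire mouse hearts taken on embryonic day 11.5. Genes were taken by name from the deposited FPKM table (fragment numbers per unit of transcript length and of library size): symbols starting with Ndufa, Ndufb, Ndufc, Ndufs, Ndufv, Uqcr, Cox4, Cox5, Cox6, Cox7, Cox8 or Atp5, together with Sdha, Sdhb, Sdhc, Sdhd and Cycs, without assembly factors and pseudogenes. The names gave 87 of the 38918 rows, and 84 reached a mean of 1 FPKM over the 6 libraries, among 12988 genes that did. They comprised 38 genes named for complex I, 4 for complex II, 8 for complex III, 16 for complex IV and 17 for complex V, and Cycs. The 3 genes left under 1 FPKM were Atp5l2, Cox7b2 and Cox8c, and Cox8c was listed at 0 in every library. The conditional knockout embryos (Nfatc1Cre:Tie2 flox/flox) carried 2 floxed Tie2 alleles and Cre recombinase under Nfatc1, which marks the endocardium, the inner lining of the heart. The control littermates carried 1 floxed and 1 wild-type Tie2 allele (Tie2 flox/wild-type), and the labels do not say whether they carried the Cre. Both groups were labelled C57/BL6. RNA of 18 hearts of each genotype was combined and portioned into 3 libraries, so every p-value below reflects only how far these portions differ, which may be technical. Tek, the gene for Tie2, stood at 3.38, 3.13 and 3.13 FPKM in the conditional knockout libraries, against 22.4, 25.7 and 16.6 FPKM in the control libraries, so the targeted transcript followed the labels (log2 fold change -2.40, SE = 0.15, adjusted p = 0.00131 in limma).

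In the respiratory chain, complex I takes electrons from NADH and complex II from succinate, ubiquinone carries them to complex III, cytochrome c carries them on to complex IV, and complex IV hands them to oxygen. Complexes I, III and IV pump protons out of the mitochondrial matrix, and complex V, the ATP synthase, lets them back in to make ATP. Most subunits come from nuclear genes and a few from mitochondrial DNA, so both genomes supply each complex other than complex II. The adult heart depends on this pathway for contraction, whereas the embryonic heart relies more on glycolysis and matures its mitochondria as development proceeds. The hearts were sequenced whole, so fewer cells of a type and less RNA per cell cannot be told apart.

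No respiratory chain gene passed the test. In limma (adjusted p under 0.05), 0 of 84 members were lower and 0 were higher, against a background of 0.123% of all 12988 genes lower and 0.0539% higher. At an unadjusted p under 0.05, 2 members were lower, Cox8b and Uqcrq, and 0 were higher, where the background was 4.37% lower and 2.31% higher. The smallest adjusted p of a member was 0.333. The members nevertheless leaned to one side: 73 of 84 had a log2 fold change (conditional knockout minus control, of FPKM + 1) below 0, against 53.2% of all genes tested. The median log2 fold change was -0.12 over the members and -0.013 over all genes tested, and members ranged from -0.50 to 0.27. With the replicate number as a block, 8 of 84 members had an unadjusted p under 0.05, a smaller share than the 11.9% of all genes in either direction. All 8 were lower, and the share of all genes that were lower in this fit is not given here. The smallest adjusted p of a member in this limma fit was 0.31.

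**Figure D1:**
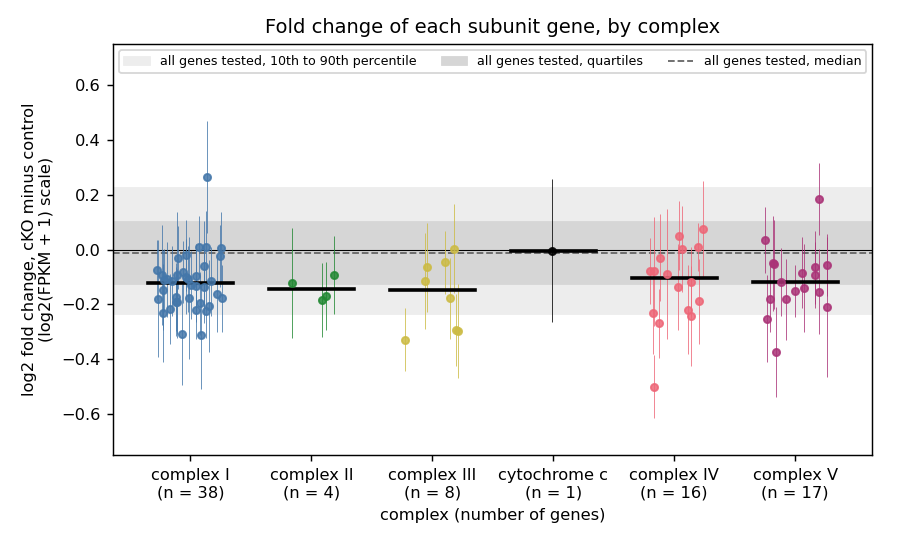
Log2 fold change (conditional knockout, cKO, minus control, log2(FPKM + 1) scale) of each of the 84 genes, grouped by complex, with bars of 1 SE from limma and a thick line at the median of a complex; grey bands and the dashed line give the spread and median of all 12988 genes tested. The medians of complexes I to V lie between -0.15 and -0.10, and Cox8b of complex IV is the lowest single gene.

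Each complex of more than 1 gene had a median below 0. The median log2 fold change was -0.12 in complex I (34 of 38 genes below 0), -0.15 in complex II (4 of 4), -0.15 in complex III (7 of 8), -0.10 in complex IV (12 of 16) and -0.12 in complex V (15 of 17). Differences between complexes were not tested. Summed over all 84 genes, the level was 20711, 22517 and 20830.2 FPKM in the conditional knockout libraries, against 26531, 22246 and 21126 FPKM in the control libraries. Control replicate 1 was the highest of the 6 libraries, conditional knockout replicate 2 lay above the other 2 controls, and the groups overlapped. As a share of all FPKM in a library, the 84 genes held 3.899%, 3.87% and 3.79% in the conditional knockout libraries, against 4.96%, 4.43% and 4.39% in the control libraries, with no overlap. That total includes 56 rows listed at 0 in every control and above 0 in every conditional knockout library, which summed to 67164, 74987 and 69226 FPKM in the 3 conditional knockout libraries. Over the 17494 rows above 0 in every library, a denominator chosen after seeing the data, the share was 4.498%, 4.45% and 4.36% in the conditional knockout libraries, against 4.98%, 4.46% and 4.401% in the control libraries, and the groups overlapped.

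The start regions of the genes were searched for 3 motifs of regulators known from this pathway, in 250 bases before to 50 after a start (RefSeq, GRCm38.p6), on both strands. Promoters were matched for 70 of the 84 members, and a motif was counted where any listed start of a gene held it. The motif of nuclear respiratory factor 1, a transcription factor of respiratory genes, was searched as the 10 bases that stand in capitals in the sequences of Ndufb4, Sdha and Cox6a1, with 1 inner base free. It lay in 17 of 70 members, 24.3%, against 5.19% of 27025 genes with a promoter and 11.7% of 9258 tested ones. AAGGTCA, the element read by nuclear receptors such as the estrogen-related receptors, lay in 8, 11.4%, against 5.38% and 3.69%. CCAAT, the box of NF-Y, lay in 31, 44.3%, against 41.1% and 43.4%. A match is a description, not a site. The median log2 fold change was -0.11 in the 17 members with the first motif and -0.12 in the 53 without it.

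Shown are the 150 bases before the start of 3 members that hold the first motif, from complexes I, II and IV. These are rich in it: in the window searched above, Ndufb4 and Sdha held 3 copies each and Cox6a1 held 2. Uqcrc1 also held 2, and the other members with the motif held 1. The isoform pair Cox8a and Cox8b is shown too, since Cox8b has the most negative value of the chain. Matches to the 3 motifs on either strand are in capitals, and each sequence runs 5′ to 3′ towards the start.
Ndufb4: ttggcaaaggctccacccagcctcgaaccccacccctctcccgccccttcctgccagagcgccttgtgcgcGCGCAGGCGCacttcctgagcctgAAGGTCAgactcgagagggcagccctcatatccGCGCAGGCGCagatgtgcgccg
Sdha: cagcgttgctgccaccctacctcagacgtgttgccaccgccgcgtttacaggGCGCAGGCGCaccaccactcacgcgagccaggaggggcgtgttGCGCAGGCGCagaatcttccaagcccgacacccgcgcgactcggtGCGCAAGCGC
Cox6a1: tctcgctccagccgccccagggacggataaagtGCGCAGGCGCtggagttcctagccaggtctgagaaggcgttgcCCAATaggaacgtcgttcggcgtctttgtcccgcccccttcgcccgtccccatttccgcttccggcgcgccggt
Cox8a: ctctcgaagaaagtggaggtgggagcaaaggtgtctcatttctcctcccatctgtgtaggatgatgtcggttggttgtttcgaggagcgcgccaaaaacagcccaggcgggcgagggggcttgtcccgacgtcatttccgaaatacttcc
Cox8b: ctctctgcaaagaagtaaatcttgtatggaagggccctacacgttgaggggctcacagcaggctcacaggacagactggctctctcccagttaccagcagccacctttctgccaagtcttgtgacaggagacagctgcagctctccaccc
They lie at chr16:37654369-37654518 (minus strand), chr13:74350241-74350390 (minus strand), chr5:115348959-115349108 (minus strand), chr19:7217617-7217766 (minus strand) and chr7:140900447-140900596 (minus strand), in the order shown. The starts are those of RefSeq. In GENCODE M21 the genes reach further, to base 37654453 for Ndufb4, 74350280 for Sdha and 115348981 for Cox6a1. Part of each of these stretches thus lies inside the gene as annotated there, and in Ndufb4 this part holds all marked matches. Ndufb4 holds the first motif 2 times in its stretch, with AAGGTCA between the copies, and Sdha holds the first motif 3 times. Cox6a1 holds the first motif and a CCAAT box. Neither Cox8a nor Cox8b has a match in this stretch. In the longer window counted above, Cox8a held a CCAAT box and Cox8b held no match. The log2 fold changes of Ndufb4, Sdha and Cox6a1 were -0.022 ± 0.11, -0.092 ± 0.14 and -0.27 ± 0.13 (SE), beside -0.22 ± 0.16 for Cox8a and -0.50 ± 0.11 for Cox8b.

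The difference was largest between the libraries numbered 1. Within the pair of replicate 1 libraries, 82 of 84 members were lower in the conditional knockout, with a median difference of -0.32 on the log2 scale. Within the replicate 2 pair 39 of 84 were lower and the median was 0.016, and within the replicate 3 pair 58 were lower and the median was -0.054. Over all genes tested the medians of the 3 pairs were -0.045, -0.0095 and -0.0086. A total of 37 members, 44.05%, were lower in the conditional knockout in all 3 pairs, against 22.3% of all genes tested. Fitted on replicates 2 and 3 alone, the median of the members was -0.033, with 49 of 84 below 0, and without control replicate 1 it was -0.035, with 57 below 0.

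**Figure D2:**
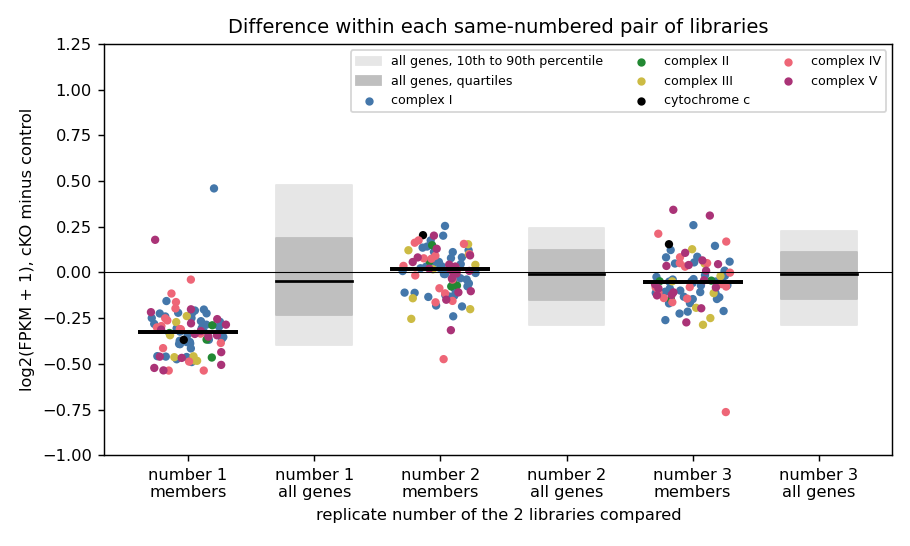
Difference in log2(FPKM + 1), conditional knockout (cKO) minus control, within each pair of libraries that share a replicate number, for the 84 members (points, coloured by complex, with the median as a line) and for all 12988 genes tested (grey bands and median line). The member median is -0.32 in the pair numbered 1 and 0.016 and -0.054 in the pairs numbered 2 and 3.

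The lowest of the 6 values fell in conditional knockout replicate 3 for 34 of 84 members and in conditional knockout replicate 1 for 32, with median deviations from a gene's own mean of -0.13 and -0.092 on the log2 scale. Control replicate 1 carried the highest value in 60 members, and its median deviation was 0.24. Conditional knockout replicate 2 stood at 0.011, beside 0.022 and -0.074 in control replicates 2 and 3. Over all genes tested, the 6 median deviations lay between -0.016 and 0.022, with control replicate 1 at 0.0083. Conditional knockout replicates 1 and 3 held the lowest value for 2927 and 2750 of the 12988 genes. Control replicate 1 held the lowest value for 3433 and the highest for 3695, more than any other library on both counts. A group of 12 members, chosen after their values were seen, did not share the high level of that library: Atp5s, Cox6b2, Cox7a1, Cycs, Ndufa4, Ndufa4l2, Ndufc1, Ndufs5, Ndufv2, Ndufv3, Uqcrb and Uqcrc2 were at or under their own mean in control replicate 1. Their median transcript GC content was 44.3%, against 51.7% in the other 72.

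**Figure D3:**
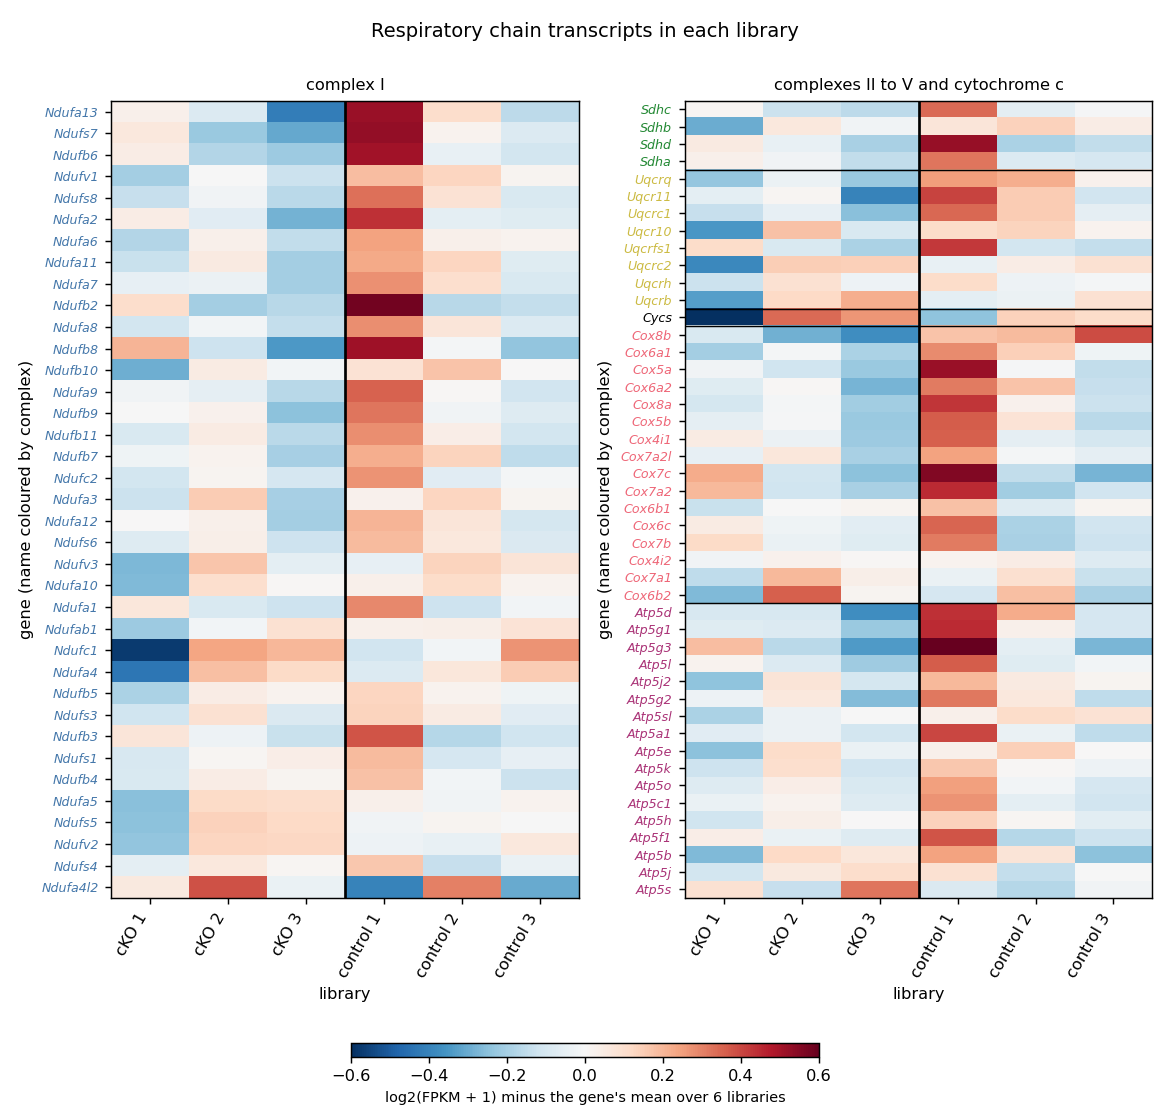
Log2(FPKM + 1) minus the gene's mean over the 6 libraries for 83 of the 84 genes (rows, ordered within a complex by fold change, names coloured by complex) in the 3 conditional knockout (cKO) and 3 control libraries; red is above and blue below the gene's mean. The column of control replicate 1 is the reddest, and it holds the highest value of 60 of the 84 members.

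Complex I, the NADH dehydrogenase, summed to 5112, 5745 and 5295 FPKM in the conditional knockout libraries, against 6344, 5713 and 5515 FPKM in the control libraries. Its 7 nuclear-encoded core subunits, which hold the flavin and the iron-sulphur clusters, had a median log2 fold change of -0.22, with 6 of 7 below 0. Ndufv1, the flavin-binding subunit, stood at 88.3, 102 and 93.1 FPKM in the conditional knockout libraries, against 116, 111 and 103 FPKM in the control libraries (log2 fold change -0.22, SE = 0.10, adjusted p = 0.772 in limma). All conditional knockout libraries of Ndufv1 lay below every control. Ndufa13, an accessory subunit that is also known as GRIM-19, had the most negative value of the complex at -0.31 (limma, SE = 0.20, adjusted p = 0.808) and stood at 77.7, 72.01 and 56.9 FPKM in the conditional knockout libraries, against 109.6, 82.05 and 68.3 FPKM in the control libraries, so the groups overlapped. Ndufs7, which carries the last iron-sulphur cluster before ubiquinone, was close to it at -0.31 ± 0.18 (SE).

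The 10 Ndufb genes, whose products sit in the distal membrane arm, were all below 0 with a median of -0.14, and of the 15 genes with an Ndufa symbol 14 were below 0 with a median of -0.12. Ndufa4 was the most abundant at 349, 536 and 511 FPKM in the conditional knockout libraries, against 446, 495 and 524 FPKM in the control libraries; the protein is now counted as a subunit of complex IV. Conditional knockout replicate 1 was the lowest library and the groups overlapped. Ndufa4l2, a paralog known to be induced by hypoxia, was the most positive, at 6.17, 7.95 and 5.68 FPKM in the conditional knockout libraries, against 4.21, 7.47 and 4.58 FPKM in the control libraries (log2 fold change 0.27, SE = 0.21, adjusted p = 0.815 in limma). Both libraries numbered 2 were high, and the groups overlapped. The remaining complex I genes had log2 fold changes between -0.23 and 0.011.

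Complex II, the succinate dehydrogenase that also works in the tricarboxylic acid cycle, summed to 609.7, 629 and 586 FPKM in the conditional knockout libraries, against 788, 625 and 617 FPKM in the control libraries. Sdhb, the iron-sulphur subunit and the most abundant of the 4, stood at 166, 213 and 201 FPKM in the conditional knockout libraries, against 215, 225 and 211 FPKM in the control libraries (log2 fold change -0.17, SE = 0.12, adjusted p = 0.815 in limma), with conditional knockout replicate 1 the lowest library. Sdhc, a membrane anchor, had the most negative log2 fold change at -0.18 ± 0.13 (SE) and Sdha, the flavoprotein, the least negative at -0.092 ± 0.14 (SE). Without control replicate 1, Sdhc was at -0.059 and Sdhb at -0.18, and without conditional knockout replicate 1 they were at -0.23 and -0.065, so their order turned with the library left out. Sdhc stood at 125, 114 and 112 FPKM in the conditional knockout libraries, against 158, 119.6 and 124 FPKM in the control libraries, and Sdha at 154, 148 and 135 FPKM in the conditional knockout libraries, against 188, 142 and 140.1 FPKM in the control libraries. In both, control replicate 1 was the highest library and the other 5 lay close together.

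Complex III, the cytochrome bc1 complex, held the gene with the second-smallest p of the chain. Uqcrq, a small structural subunit (chr11:53427922-53430831, minus strand, GENCODE M21 on GRCm38), stood at 160.05, 184 and 161 FPKM in the conditional knockout libraries, against 224, 219 and 192 FPKM in the control libraries. Every conditional knockout library was below every control. The mean was 168 ± 13.2 FPKM over the conditional knockout libraries and 212 ± 17.2 FPKM over the control libraries (SD, n = 3 libraries each). The fold change on the log2 scale came to -0.33 (limma, SE = 0.11, adjusted p = 0.708), unadjusted p = 0.023. Uqcrc1, a core subunit, and Uqcr11 followed at -0.29 ± 0.13 and -0.30 ± 0.17 (SE), while Uqcrb, which binds near the ubiquinone site, was the highest of the 8 at 0.0035 ± 0.16 (SE). Uqcrb stood at 464, 633 and 678 FPKM in the conditional knockout libraries, against 560.1, 569 and 621 FPKM in the control libraries, with the lowest and the highest value both in the conditional knockout. Uqcrh, the hinge subunit and the most abundant, was at 668, 776 and 714 FPKM in the conditional knockout libraries, against 788, 713 and 724 FPKM in the control libraries (log2 fold change -0.046, SE = 0.12, adjusted p = 0.959 in limma). Cyc1, the cytochrome c1 gene that the naming rule does not take, was at 169.9, 162 and 136 FPKM in the conditional knockout libraries, against 265, 185 and 152 FPKM in the control libraries, with a log2 fold change of -0.33 ± 0.21 (SE).

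Cycs, the gene for cytochrome c, stood at 126, 245 and 232 FPKM in the conditional knockout libraries, against 163, 212 and 208 FPKM in the control libraries, a log2 fold change of -0.0033 (limma, SE = 0.26, adjusted p = 0.998). Both libraries numbered 1 were the lowest of their group, and the groups overlapped.

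Complex IV, cytochrome c oxidase, has subunits that exist as a widely expressed isoform and a second isoform of striated muscle or of low oxygen. Cox8b, the striated muscle isoform of subunit VIII in rodents (chr7:140898945-140900446, minus strand, GENCODE M21 on GRCm38), had the most negative log2 fold change of all 84 members, -0.50 (limma, SE = 0.11, adjusted p = 0.333), unadjusted p = 0.00295. It stood at 19.2, 16.6 and 15.6 FPKM in the conditional knockout libraries, against 23.2, 23.5 and 27.2 FPKM in the control libraries. Its mean was 17.1 ± 1.83 FPKM over the conditional knockout libraries and 24.6 ± 2.24 FPKM over the control libraries (SD, n = 3 libraries each). All 3 conditional knockout libraries lay below every control, and the difference held in each same-numbered pair, at -0.26, -0.47 and -0.76. Its smallest difference was in the pair numbered 1, and control replicate 3 was its highest library. The block gave Cox8b an adjusted p of 0.31 in limma, and after a correction for GC content it stood at -0.42 ± 0.12 (log2 fold change ± SE) with an adjusted p of 0.592 in limma.

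Cox8a, the widely expressed partner of Cox8b, stood at 607, 646 and 565 FPKM in the conditional knockout libraries, against 880.4, 664 and 597 FPKM in the control libraries (log2 fold change -0.22, SE = 0.16, adjusted p = 0.815 in limma). Cox8b made up 2.51% to 4.36% of the FPKM of both isoforms in a library. The log2 ratio of Cox8b to Cox8a was -5.07 ± 0.14 in conditional knockouts and -4.79 ± 0.39 in controls (SD, n = 3 each; exact permutation p = 0.3). The difference of -0.28 was -0.092 without control replicate 3, -0.48 without control replicate 1 and -0.56 on replicates 2 and 3 alone. The other muscle isoforms were closer to their partners in level. Cox6a2 stood at 256, 270.4 and 222 FPKM in the conditional knockout libraries, against 335, 303 and 245 FPKM in the control libraries, and its partner Cox6a1 at 391, 446 and 395 FPKM in the conditional knockout libraries, against 549, 497 and 442 FPKM in the control libraries. Cox7a1 stood at 118, 150.1 and 134 FPKM in the conditional knockout libraries, against 128, 139.97 and 119 FPKM in the control libraries, and its partner Cox7a2 at 319, 256 and 242 FPKM in the conditional knockout libraries, against 379, 240.2 and 256 FPKM in the control libraries. The groups overlapped for Cox6a2, Cox7a1 and Cox7a2, and also for Cox6a1, where conditional knockout replicate 2 lay above control replicate 3.

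The log2 ratio of Cox6a2 to Cox6a1 was -0.72 ± 0.11 in conditional knockouts and -0.76 ± 0.080 in controls (SD, n = 3 each; exact permutation p = 0.7), and that of Cox7a1 to Cox7a2 was -1.01 ± 0.36 in conditional knockouts and -1.14 ± 0.40 in controls (SD, n = 3 each; exact permutation p = 0.6). Cox4i2, an isoform known from lung and low oxygen, was a minor form at 6.57, 6.82 and 6.72 FPKM in the conditional knockout libraries, against 6.78, 6.91 and 6.28 FPKM in the control libraries, beside Cox4i1 at 448, 422 and 372 FPKM in the conditional knockout libraries, against 556, 417 and 402 FPKM in the control libraries. The log2 ratio of Cox4i2 to Cox4i1 was -5.75 ± 0.15 in conditional knockouts and -5.89 ± 0.24 in controls (SD, n = 3 each; exact permutation p = 0.5). Adjusted over the 4 pairs, every p of an isoform ratio was 0.7, two-sided, and 3 libraries against 3 cannot give a p under 0.1. The ratio of Cox7a1 to Cox7a2 was lowest in both libraries numbered 1, at -1.43 in the conditional knockout and -1.56 in the control, and lay between -1.10 and -0.77 in the other 4. The most abundant gene of the complex was Cox6b1, a subunit at the dimer interface, at 909.8, 998 and 1009 FPKM in the conditional knockout libraries, against 1128, 947 and 1009 FPKM in the control libraries (log2 fold change -0.078, SE = 0.12, adjusted p = 0.911 in limma). Cox6b2, known as its testis isoform, was the most positive at 0.075 ± 0.18 (SE) and stood at 20.8, 32.6 and 25.5 FPKM in the conditional knockout libraries, against 23.4, 28.7 and 21.9 FPKM in the control libraries. Cox7a2l had a log2 fold change of -0.12 ± 0.13 (SE).

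**Figure D4:**
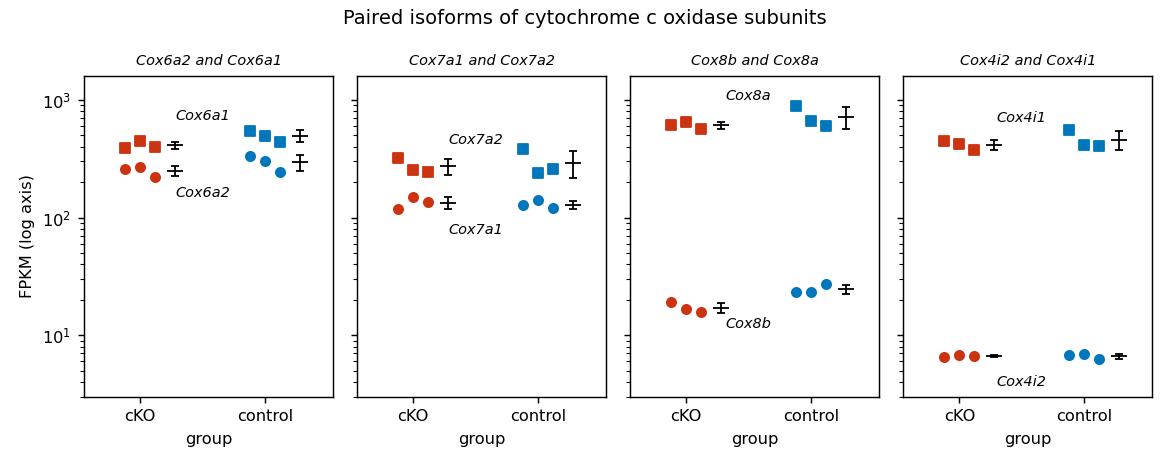
FPKM (log axis) of 4 pairs of cytochrome c oxidase isoforms in the conditional knockout (cKO, red) and control (blue) libraries, 1 point a library, with mean and SD beside them; circles are the striated muscle or low-oxygen isoform and squares the widely expressed one. Cox8b is the gene whose 3 conditional knockout libraries lie below every control.

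Complex V, the ATP synthase, had the highest levels, with a median of 410.4 FPKM per gene, against 294 in complex IV, 269 in complex III, 156 in complex II, 138 in complex I and 10.7 over all genes tested. Atp5b, the catalytic beta subunit, was the most abundant member at 1079.9, 1411 and 1359 FPKM in the conditional knockout libraries, against 1533, 1369 and 1095 FPKM in the control libraries. Its highest and its second-lowest value were both in controls and the groups overlapped (log2 fold change -0.050, SE = 0.17, adjusted p = 0.972 in limma). Atp5d, the delta subunit in the central stalk, had the most negative value of the complex at -0.37 (limma, SE = 0.16, adjusted p = 0.762) and stood at 257, 257 and 212 FPKM in the conditional knockout libraries, against 373, 321 and 257 FPKM in the control libraries. Conditional knockout replicates 1 and 2, at 257.3 and 257.5 FPKM, lay just above control replicate 3 at 256.6 FPKM, so the groups overlapped by a narrow margin. The 5 genes of the F1 head had a median log2 fold change of -0.12, the 3 genes of the c ring, whose products mature to the same protein, -0.21, and the 7 genes of the peripheral stalk and membrane part -0.085. Atp5s, which encodes coupling factor B and is not a structural subunit, was the most positive at 0.18 ± 0.13 (SE), at 7.89, 6.57 and 9.42 FPKM in the conditional knockout libraries, against 6.85, 6.403 and 7.22 FPKM in the control libraries. Atp5sl, whose product is known from complex I assembly, was separated at 22.4, 24.998 and 25.7 FPKM in the conditional knockout libraries, against 26.2, 27.8 and 27.3 FPKM in the control libraries (-0.15 ± 0.094, SE).

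In all, 5 members, or 5.95%, had all conditional knockout libraries below every control, among them Ndufv1, Uqcrq, Cox8b and Atp5sl. This share was under the background, where 8.17% of all genes tested were separated in that direction, and 0 members were separated the other way, where the background was 5.23% (13.4% of all genes in either direction). Without a single library the count lay between 6 and 27. It was highest without control replicate 3, at 32.1% of members, above the 27.5% of all genes separated in either direction. Without conditional knockout replicate 2 it was also above the background, at 27.4% against 24.3%. Without any other single library the member share was below the background.

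Base composition moved with the result. Across the 84 members, the log2 fold change and the GC content of the longest coding transcript had a Spearman rho of -0.38 (Pearson r = -0.37), and over 12858 genes tested rho was -0.42. These are descriptions across genes that share the same 6 libraries. The 28 members with the highest GC content, 54.4% to 63.3%, had a median log2 fold change of -0.18, and the 28 with the lowest, 38.4% to 48.99%, -0.092. Among single libraries, the deviations of members had a rho with GC content of -0.35 in conditional knockout replicate 3 and 0.59 in control replicate 2. In the other libraries it lay between -0.14 and 0.091. Over 12858 genes tested, rho was likewise -0.44 in conditional knockout replicate 3 and 0.49 in control replicate 2. After a correction for GC content in each library the member median was -0.10, with 76 of 84 below 0. Member transcripts were short, with a median length of 892 bases against 3038 over all genes tested. Length had a rho with the log2 fold change of 0.056 across the members and 0.19 over 12858 genes tested. Within the pairs numbered 1, 2 and 3, its rho with the difference was 0.27, -0.048 and 0.13 over those genes. Across the members it was -0.12, -0.013 and 0.16.

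**Figure D5:**
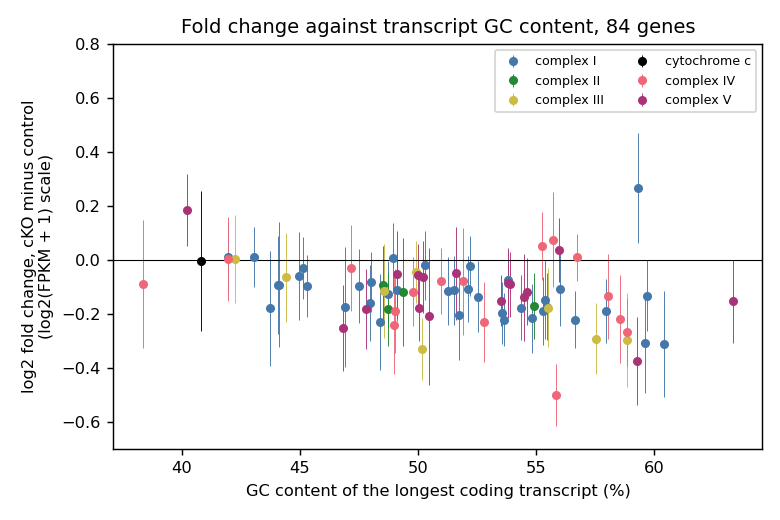
Log2 fold change (conditional knockout, cKO, minus control, log2(FPKM + 1) scale, bars of 1 SE from limma) of the 84 members against the GC content of the longest coding transcript in percent, coloured by complex. Values tend to be lower toward the right of the plot (rho -0.38), and Cox8b, the lowest point, lies below members of like GC content.

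On the FPKM as deposited, 4 other mitochondrial gene lists had medians below 0 and the list of biogenesis regulators a median above 0, and none of them held a called gene. Of the 43 assembly factor genes tested of 53 listed, 34 were below 0 (median log2 fold change -0.095), from Sco2, a copper chaperone of complex IV, at -0.28 ± 0.14 to Lyrm7, a complex III assembly factor, at 0.27 ± 0.33 (SE). Of 18 genes of the tricarboxylic acid cycle, 17 were below 0 (median -0.12), with Ogdh, a subunit gene of the oxoglutarate dehydrogenase, lowest at -0.32 ± 0.13 and Dld highest at 0.036 ± 0.11 (SE). Ogdh stood at 88.96, 111 and 112 FPKM in the conditional knockout libraries, against 134, 139 and 116 FPKM in the control libraries, with no overlap. Of 8 carriers and channels tested of 9 listed, 7 were below 0 (median -0.084), with Ucp2 at -0.23 ± 0.16 and the phosphate carrier gene Slc25a3 at 0.026 ± 0.11 (SE). Of 76 genes of the mitochondrial ribosome, 59 were below 0 (median -0.092), from Mrpl2 at -0.35 ± 0.17 to Mrpl1 at 0.17 ± 0.14 (SE). Of 17 biogenesis regulators tested of 20 listed, 12 were above 0 (median 0.082), from Esrra, an orphan nuclear receptor gene, at -0.13 ± 0.11 to Gabpa, a subunit gene of nuclear respiratory factor 2, at 0.22 ± 0.16 (SE).

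The tricarboxylic acid cycle, the assembly factors, the carriers and channels and both ribosome lists also differed most in the pair numbered 1. The median differences within the pairs numbered 1, 2 and 3 were -0.34, -0.042 and 0.022 for the tricarboxylic acid cycle and -0.34, 0.020 and 0.0040 for the mitochondrial ribosome. In the same order they were -0.25, 0.0087 and -0.018 for the assembly factors and -0.34, 0.080 and 0.060 for the carriers and channels. The 81 tested genes of the cytosolic ribosome, another list of short and abundant transcripts, gave -0.25, 0.13 and -0.014, with 0 called, a median log2 fold change of -0.052 and a range from Rps3a2 at -0.65 ± 0.44 to Rpl24 at 0.21 ± 0.10 (SE). Other lists lay above 0 in the pair numbered 1, at 0.040 for the biogenesis regulators, 0.20 for epicardial, 0.62 for cushion mesenchyme and 0.38 for macrophage markers. The remaining marker lists lay below 0 in that pair. Their medians were -0.48 for cardiomyocyte, -0.63 for endothelial and endocardial, -0.80 for smooth muscle, -0.62 for erythroid and -2.44 for liver markers.

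Markers of other cell types were summed in each library. All 14 cardiomyocyte markers were detected, none was called, and 12 were below 0. Their median log2 fold change was -0.23, further from 0 than the member median of -0.12, and 4 of 14, 28.6%, had every conditional knockout library below every control, against 8.17% of all genes tested. Their median difference in the pairs numbered 1, 2 and 3 was -0.48, -0.098 and -0.040. Their sum was 17671, 26712 and 24875 FPKM in the conditional knockout libraries, against 25686, 26853 and 25765 FPKM in the control libraries, lowest in conditional knockout replicate 1. Of 8 endothelial and endocardial markers, 7 lay below 0 with every conditional knockout library below every control, and 2 of them, Npr3 and Plvap, were called lower in limma, against 8.17% and 0.123% of all genes tested. Their median log2 fold change was -0.57, and the sum was 177 to 209.8 FPKM in the conditional knockout libraries and 275 to 305 FPKM in the control libraries. Of 10 erythroid markers, Hbb-y and Hba-x were called higher in limma but were listed at 0 in all controls, and an exact 0 of an abundant gene can be a failed estimate. Of the 7 genes called higher in the whole table, 6 were at 0 in all controls, these 2 and 4 genes of mitochondrial DNA. The other 8 erythroid markers summed to 8019 to 13687 FPKM in the conditional knockout libraries and 9662 to 14527 FPKM in the control libraries. No gene was called among the other lists. The 6 epicardial markers summed to 161 to 173 FPKM in the conditional knockout libraries and 158 to 174 FPKM in the control libraries, and the 5 of cushion mesenchyme to 215 to 270.3 FPKM in the conditional knockout libraries and 152 to 296 FPKM in the control libraries. The 4 smooth muscle markers summed to 791 to 1049 FPKM in the conditional knockout libraries and 966 to 1474 FPKM in the control libraries. The macrophage markers, 4 of 6 tested, summed to 14.8 to 15.9 FPKM in the conditional knockout libraries and 10.6 to 12.8 FPKM in the control libraries, and the 5 liver markers to 2.66 to 237 FPKM in the conditional knockout libraries and 22.2 to 87.5 FPKM in the control libraries. The part of these cells, of GC content, of transcript length and of the libraries numbered 1 in the member values was not tested.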

How the data were processed

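RNA of whole embryonic hearts was sequenced in 3 conditional knockout and 3 control libraries made with an Illumina TruSeq kit, per the labels' protocols. The deposited table holds FPKM values made by the authors; the build mm10 and the tools HTSeq, Cuffdiff, Cufflinks (version 2.2.1) and TopHat2 (version 2.0.9) are listed in the submitters' processing notes without their roles. With annotation release, strand setting and multi-read handling not given in the sources used here, members with processed pseudogenes or near-identical copies (Atp5g1, Atp5g2 and Atp5g3 among them) are uncertain, as are the 25 members that overlap another protein-coding gene (22 on the other strand). Values were tested as log2(FPKM + 1) in limma (3.58.1, under R 4.3.3), using a trend on intensity and no block, with Benjamini-Hochberg adjustment over 12988 genes that averaged 1 FPKM or more. Read depth is unknown. Ratios of values under 0.3 FPKM piled up at 1 value (windows of 0.02 on the log2 scale) for 7.27% to 12.6% of genes between libraries numbered 2 or 3, for 1.01% to 1.39% where 1 library was numbered 1, and for 3.19% between both libraries numbered 1.

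Deviations from the group means of same-numbered libraries correlated at 0.27, 0.11 and 0.44 over 12805 tested genes above 0 in every library, and at 0.19, 0.031 and 0.23 over all tested genes. Libraries of unlike number correlated at -0.39 to 0.095 in the first set and at -0.23 to 0.056 over all tested genes. Number 2 was hardly set apart. Control replicate 2 correlated with conditional knockout replicate 3 at 0.095 in the first set and at 0.056 over all tested genes, beside 0.11 and 0.031 with conditional knockout replicate 2. By the first set the numbers were taken as pairs, and the labels say nothing of what a number marks. Transcript GC content and length came from GENCODE release M21 and were available for all 84 members and 12858 of 12988 tested genes. Members, lists and tests were chosen with earlier results of these data known. Members named with values were those past the threshold, the 4 isoform pairs, and in each complex the most abundant, the most negative, the most positive and the smallest p; other members, Cyc1 and the 12 listed by library were chosen after their values were seen. A member that this rule names in complex I is not reported here. Alternatives were another pseudocount, filter, scaling or trend, the block, each library left out, replicates 2 and 3 alone, and GC correction, the last added after seeing the data.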

Additional observations from a re-analysis of the deposited data

How the results depend on the processing

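The count of 0 members called in limma, in either direction, held under all 16 alternatives, with a smallest adjusted p of 0.308 to 1. The member median lay between -0.19 and -0.033. It was nearest to 0 on replicates 2 and 3 alone (-0.033) and without control replicate 1 (-0.035), and it was -0.095 with median-ratio scaling and -0.082 with quantile normalization. Over all genes, 16 were lower. That count was 2 to 7 without 1 library, 0 on replicates 2 and 3, where 11.1% of genes had an unadjusted p under 0.05, 7 with no filter and 10 with GC correction and the replicate block. Members whose groups do not overlap numbered 5. Without 1 library they numbered 6 to 27 (7.14% to 32.1%, against 16.8% to 28.1% of all genes). The member share was the larger without control replicate 3 (32.1%, against 27.5%) and without conditional knockout replicate 2 (27.4%, against 24.3%). It was the smaller without any other single library. Such members numbered 24 on replicates 2 and 3 (28.6%, against 45.98% of all genes) and 10 with quantile normalization (11.9%, against 13.4%). Values near 0 changed sign. On replicates 2 and 3 alone the log2 fold changes were Cox7a2 0.0058, Ndufa4 0.038, Sdha 0.0068, Uqcrh 0.051, Cycs 0.18, Cox6b1 0.037 and Atp5b 0.18. Cycs was at 0.020 with median-ratio scaling and 0.056 with quantile normalization, and Uqcrb at -0.091 with GC correction, with or without the block. Without 1 library the ranges that crossed 0 were Ndufa4 -0.21 to 0.10, Uqcrh -0.10 to 0.0068, Cycs -0.18 to 0.30, Atp5b -0.18 to 0.069, Cox7a1 -0.033 to 0.14, Cox4i2 -0.026 to 0.033, Uqcrb -0.10 to 0.17, Cox6b2 -0.085 to 0.23, Cox7a2 -0.20 to 0.12, Cox4i1 -0.22 to 0.011, Sdha -0.16 to 0.046, and for the isoform ratios Cox6a2 over Cox6a1 -0.018 to 0.093 and Cox7a1 over Cox7a2 -0.078 to 0.34. The cause of these changes was not tested. The replicate block changed no call of a member and left the member median at -0.12. Depth is unknown, so counting error could not be set apart.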

Other observations

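The mitochondrially encoded partners of these subunits could not be compared. Of the 13 protein-coding genes of mitochondrial DNA, 7 were listed at 0 in all 6 libraries, 4 (mt-Nd1, mt-Nd4, mt-Nd5 and mt-Nd6) in the 3 control libraries only, and 2 were above 0 in every library. An exact 0 of genes that every cell uses can be a failed estimate, so no fold is given. Both genes above 0 throughout belong to complex I. The FPKM of mt-Nd2 was 7411, 8511 and 9149 in the conditional knockout libraries, against 8523, 7847 and 7665 in the control libraries, and that of mt-Nd3 was 6553, 6367 and 7788 in the conditional knockout libraries, against 7646, 4938 and 7048 in the control libraries. In neither gene were the groups separated. The lowest library was conditional knockout replicate 1 for mt-Nd2 and control replicate 2 for mt-Nd3.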
